A study of Mus musculus with 4 samples.

Results

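The genes described here are 41 cell cycle and proliferation genes of mouse brown adipose tissue. They were taken from the 55387 rows of gene-level FPKM (fragments per length of transcript and per depth of library) by their gene symbol, and every one of the 41 had a row. They comprise 5 G1 cyclins, 11 genes of S phase, 21 genes of G2 and mitosis, and 4 inhibitors of cyclin-dependent kinases (CDKs). RNA was sequenced from whole interscapular brown fat of 15-week-old male C57BL/6 mice, 2 of them Sox4f/f control littermates, which carry the floxed allele without Cre and are labelled WT, and 2 labelled Sox4-MKO, made by crossing Myf5-Cre with Sox4f/f mice. Both genotypes share the floxed Sox4 alleles. Myf5-Cre acts in precursors shared by skeletal muscle and brown adipocytes, so vessels, immune cells and other cells that arise from other precursors should keep Sox4. One of the labels gives the cell type as adipocytes, but the material was the tissue. In all sentences below the 2 values of a group are given in the order mouse 1, mouse 2.

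A dividing cell passes from G1, where D-type and E-type cyclins activate CDKs and release E2F transcription factors from the Rb proteins, into S phase, where the MCM helicase, the sliding clamp PCNA and the enzymes that make deoxynucleotides copy the genome. Cyclin A, cyclin B and CDK1 then drive G2 and mitosis, in which Aurora and Polo kinases, kinesins and the spindle checkpoint separate the chromosomes. Mature brown adipocytes have left the cycle, and in adult brown fat the dividing cells are mostly found among progenitors, vessel cells and immune cells. In bulk tissue a change in the number of cycling cells and a change in RNA per cell cannot be told apart.

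Several facts of the libraries bear on the values. The floxed gene itself was not lower under the Sox4-MKO label, with Sox4 at 1.98 and 1.06 FPKM in the controls and 0.981 and 3.06 FPKM in the pair labelled Sox4-MKO (log2 fold change 0.20, SE 0.43, adjusted p = 0.843 by limma). The sign depended on the library, at -0.32 with Sox4-MKO mouse 2 left out and 0.71 with mouse 1 left out. Brown adipocyte markers were present in every library (summed FPKM of 10 genes 10489 to 15218), while 10 skeletal muscle markers summed to 230.1 and 841.5 FPKM in the controls and 16128 and 2857 FPKM in the pair labelled Sox4-MKO, so that Sox4-MKO mouse 1 carried by far the most muscle RNA. Depth was estimated from the steps of low FPKM values and came to roughly 1.2e+07 to 1.55e+07 fragments a library. For Sox4-MKO mouse 2 the estimate was uncertain by 2.83-fold, as some starting values ended at a step that much larger, so its fragment numbers below may be too high by up to that factor. The labels list the libraries as separate samples of each genotype, and p-values measure only the spread between them.

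The clearest pattern among the 41 genes lay in G2 and mitosis, where transcripts were scarce and the library labelled Sox4-MKO mouse 1 stood highest. Of these 21 genes, 19 had their highest FPKM in that library, against 32.4% of all rows with a value above 0, and 20 lay above both Sox4f/f libraries in it, against 39.2% of rows. In the library labelled Sox4-MKO mouse 2, 13 of the 21 lay above both Sox4f/f libraries, against 31.5% of rows. Both libraries labelled Sox4-MKO were above both Sox4f/f libraries at 13 genes (61.9%), against 19.7% of rows, and both below at 0, against 21.3% of rows. These counts are descriptions of 4 libraries in which genes that cycle together are not independent.

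In FPKM the mitotic group was low throughout. Summed over the 21 genes it reached 10.6 and 8.82 FPKM in the controls and 26.4 and 13.4 FPKM in the pair labelled Sox4-MKO. The median gene stood at 2.75 times the Sox4f/f mean in Sox4-MKO mouse 1 and at 1.32 times in Sox4-MKO mouse 2. The medians over all tested rows, whose averaged FPKM exceeded 1 in at least 1 genotype, were 0.982 and 0.923. Of the 21 mitotic genes, 14 were not above that limit, so the levels compared are unlike. An excess over the Sox4f/f mean of more than 2-fold was seen at 16 genes in mouse 1 and at 5 in mouse 2.

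**Figure D1:**
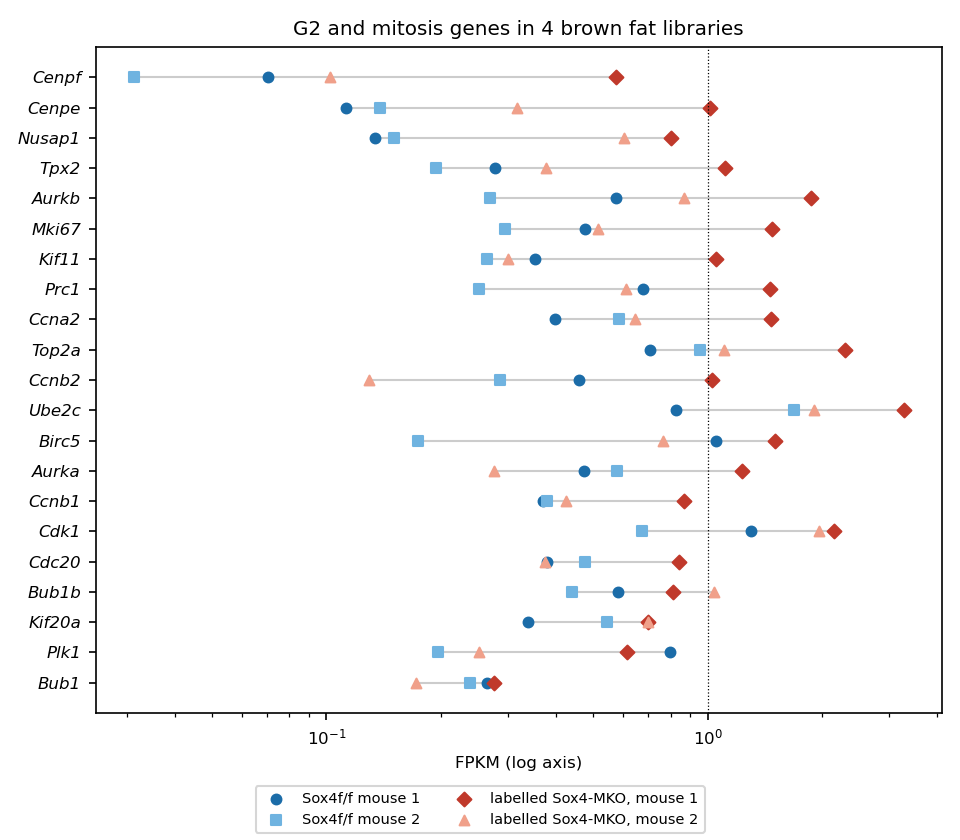
FPKM of the 21 G2 and mitosis genes on a log axis, 1 point per library (blue, Sox4f/f; red, labelled Sox4-MKO), ordered by the ratio of Sox4-MKO mouse 1 to the Sox4f/f mean; the dotted line is the limit of 1 FPKM applied to group averages. The dark red point of Sox4-MKO mouse 1 is rightmost at 19 genes.

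Mki67, which encodes the Ki-67 protein of the surface of mitotic chromosomes and serves as the standard histological mark of cycling cells, was at 0.477 and 0.293 FPKM in the controls and 1.47 and 0.517 FPKM in the pair labelled Sox4-MKO. The groups did not overlap, but mouse 2 lay just above the higher control. The FPKM corresponded to about 63 and 35 fragments against 182 and 81, and, at the depth estimated, the 95% Poisson intervals of the last value (64.3 to 101 fragments) and of the first (48.4 to 80.6) overlapped. Top2a, which encodes topoisomerase II alpha and untangles sister chromatids, also had both libraries labelled Sox4-MKO above the controls, at 0.705 and 0.958 against 2.29 and 1.10 FPKM. It passed the limit of 1 FPKM only through the libraries labelled Sox4-MKO, and its log2 fold change of 0.53 (SE 0.31, adjusted p = 0.458 by limma) was within the replicate spread.

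Among the mitotic kinase and its cyclins, Cdk1 was the one member that stood high in both libraries labelled Sox4-MKO. It was at 1.30 and 0.675 FPKM in the controls and 2.15 and 1.96 FPKM in the pair labelled Sox4-MKO (log2 fold change 0.64, SE 0.26, unadjusted p = 0.0610, adjusted p = 0.327 by limma). Ccna2, the A-type cyclin of S phase and G2, was at 0.397 and 0.584 against 1.47 and 0.644 FPKM, with only mouse 1 clearly apart. Ccnb1, a B-type cyclin of mitotic entry, showed the same at 0.371 and 0.380 against 0.867 and 0.425 FPKM. Its relative Ccnb2 overlapped between the groups, because mouse 2 was the lowest library of all at 0.129 FPKM while mouse 1 was the highest at 1.03 FPKM and the controls lay between at 0.459 and 0.286 FPKM.

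The chromosomal passenger and checkpoint genes were uneven. Aurkb, the Aurora kinase of the passenger complex that corrects kinetochore attachments, was at 0.574 and 0.270 FPKM in the controls and 1.87 and 0.865 FPKM in the pair labelled Sox4-MKO, with no overlap. Its partner Birc5 (survivin) overlapped, since the Sox4f/f mice themselves differed 6.06-fold at 1.05 and 0.174 FPKM, against 1.5 and 0.762 FPKM. Bub1b, which encodes the checkpoint protein BubR1, was the single mitotic gene highest in mouse 2, at 0.583 and 0.441 against 0.809 and 1.04 FPKM. The related kinase gene Bub1 was nearly level in 3 libraries, at 0.265 and 0.238 against 0.275 and 0.172 FPKM.

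Aurka and Plk1, the kinases of spindle poles and mitotic entry, did not separate the groups. Aurka was highest in mouse 1 and lowest in mouse 2, at 1.23 and 0.276 FPKM around controls at 0.473 and 0.579 FPKM. Plk1 was the 1 mitotic gene whose highest value lay in a control, at 0.795 and 0.197 against 0.614 and 0.252 FPKM. Of the regulators of the anaphase-promoting complex, Cdc20 was at 0.380 and 0.478 against 0.843 and 0.375 FPKM and overlapped, whereas the E2 ubiquitin-conjugating enzyme gene Ube2c was the most abundant of the 21 at its peak, at 0.824 and 1.69 against 3.27 and 1.90 FPKM, and did not overlap.

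Kinetochore and spindle genes gave the widest ratios, on very few fragments. Cenpf was at 0.0705 and 0.0313 FPKM in the controls and 0.575 and 0.102 FPKM in the pair labelled Sox4-MKO, about 10 and 4 fragments against 79 and 18. The kinetochore motor gene Cenpe was at 0.112 and 0.139 against 1.02 and 0.317 FPKM, about 12 and 13 fragments against 99 and 39. Mouse 1 thus stood at 11.3 and 8.11 times the Sox4f/f mean at these genes and mouse 2 at 2.00 and 2.53 times. Nusap1, which encodes a microtubule-bundling protein of the spindle, was the gene at which both libraries labelled Sox4-MKO stood far apart from the controls, at 0.134 and 0.150 against 0.803 and 0.603 FPKM, about 6 and 6 fragments against 35 and 33. Without the FPKM limit and with a pseudocount of 0.1, its log2 fold change was 1.72 (SE 0.48, unadjusted p = 0.0170, adjusted p = 0.319 by limma).

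The remaining spindle genes followed mouse 1. Tpx2, which activates Aurora A on spindle microtubules, was at 0.277 and 0.194 against 1.11 and 0.377 FPKM. Kif11, the kinesin that pushes spindle poles apart, was at 0.353 and 0.263 against 1.05 and 0.300 FPKM, with mouse 2 inside the range of the controls. For cytokinesis, Prc1 of the central spindle was at 0.678 and 0.252 against 1.46 and 0.610 FPKM and overlapped in the same way, while the kinesin gene Kif20a was equal in both libraries labelled Sox4-MKO, at 0.697 FPKM each, where the controls were at 0.338 and 0.545 FPKM.

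The mitotic genes also shared promoter sequence that the choice by symbol did not use. In cells that divide, most late cell cycle genes are repressed in G0 by the DREAM complex through the cell cycle genes homology region (CHR) and are activated with the help of the CCAAT-binding factor NF-Y, whereas E2F sites act on S phase genes. RefSeq promoter windows (GRCm38.p6, 250 bases before to 50 after the annotated start) were matched for 33 of the 41 genes and searched on both strands for the CHR letters TTTGAA, the NF-Y letters CCAAT and the E2F letters TTTNNCGC. The CHR letters occurred in 12 of 17 mitotic windows (70.6%) and in 20.2% of all 27025 genes with a window, and the NF-Y letters in 15 of 17 (88.2%) and 41.1% of genes. Both occurred together in 70.6% of mitotic windows and 8.97% of genes. The CHR matches began at a median of 19 bases and the NF-Y matches at a median of 78 bases before the start, and none overlapped a match to another of the motifs.

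Windows of 3 mitotic genes are shown with the CHR and NF-Y letters (or their reverse complements) in capitals, because Mki67, Top2a and Ccnb2 hold both motifs more than once and yet differ in how they followed the libraries: Mki67 and Top2a did not overlap between the groups and Ccnb2 did. They lie on the minus strand at chr7:135716330-135716629, chr11:99024140-99024439 and chr9:70421505-70421804, and each spans the annotated start and the first 50 bases transcribed.
Mki67: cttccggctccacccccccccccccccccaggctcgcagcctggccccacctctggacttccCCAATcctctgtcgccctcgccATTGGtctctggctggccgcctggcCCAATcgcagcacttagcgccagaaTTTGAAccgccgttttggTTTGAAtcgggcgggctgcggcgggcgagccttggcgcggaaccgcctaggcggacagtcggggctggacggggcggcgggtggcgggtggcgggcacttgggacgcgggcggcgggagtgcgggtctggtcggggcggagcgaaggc
Top2a: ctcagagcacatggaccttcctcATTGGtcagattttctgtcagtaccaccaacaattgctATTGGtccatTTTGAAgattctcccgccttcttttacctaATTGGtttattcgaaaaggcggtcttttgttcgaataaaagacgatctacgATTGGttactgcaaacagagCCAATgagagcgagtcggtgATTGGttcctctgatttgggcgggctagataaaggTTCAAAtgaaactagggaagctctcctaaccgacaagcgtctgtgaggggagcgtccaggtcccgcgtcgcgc
Ccnb2: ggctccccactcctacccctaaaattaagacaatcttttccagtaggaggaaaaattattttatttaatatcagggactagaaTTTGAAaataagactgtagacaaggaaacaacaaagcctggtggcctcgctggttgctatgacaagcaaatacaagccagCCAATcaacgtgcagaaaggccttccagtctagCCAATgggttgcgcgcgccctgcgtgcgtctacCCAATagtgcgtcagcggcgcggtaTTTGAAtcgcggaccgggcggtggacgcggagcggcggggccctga

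The mitotic genes with and without the CHR letters included examples of both kinds of pattern. Nusap1 and Birc5 held neither the CHR nor the NF-Y letters in their windows, and Cenpe, Ccnb1 and Bub1 held NF-Y letters alone. Aurka, Plk1 and Cdc20, which overlapped between the groups, held both. The letters describe these windows only.

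**Figure D2:**
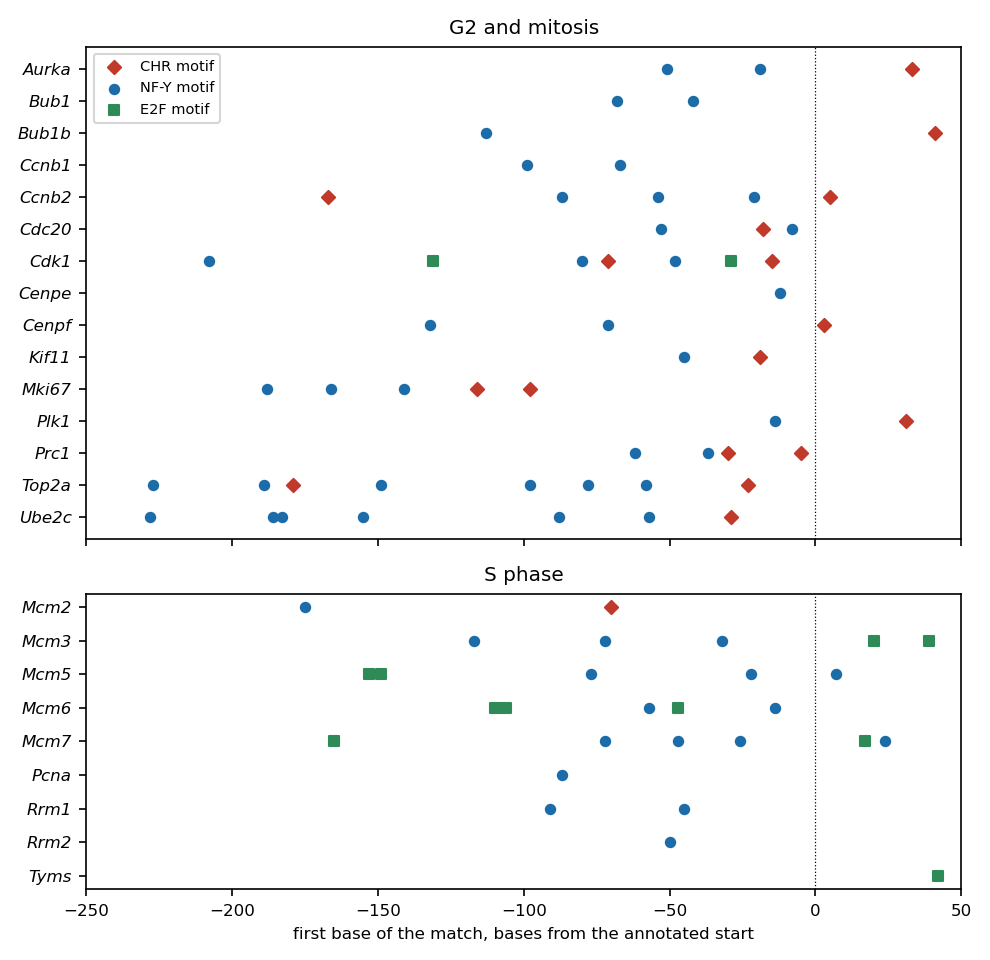
Start of each motif match, in bases from the annotated start, in the promoter windows of mitotic genes (upper panel) and S phase genes (lower panel) that hold at least 1 match; both strands were searched. CHR matches (red) are found in 12 mitotic genes and 1 S phase gene, and E2F matches (green) in 1 mitotic gene and 5 S phase genes.

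S phase genes were expressed at higher levels and differed less between libraries. Summed over the 11 genes, they reached 60.0 and 50.1 FPKM in the controls and 70.4 and 47.7 FPKM in the pair labelled Sox4-MKO. Again 9 of 11 (81.8%) were highest in Sox4-MKO mouse 1, against 32.4% of rows. Only 1 (9.09%), E2f1, lay above both Sox4f/f libraries in Sox4-MKO mouse 2, under the 31.5% of rows. The median gene stood at 1.58 times the Sox4f/f mean in mouse 1 and at 0.994 times in mouse 2.

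Of the 6 subunits of the MCM replicative helicase, 5 were highest in the library labelled Sox4-MKO mouse 1, against 32.4% of all rows. Mcm6 was at 2.16 and 1.57 FPKM in the controls and 3.36 and 2.11 FPKM in the pair labelled Sox4-MKO. Mcm3 was at 2.98 and 2.09 against 3.66 and 1.58 FPKM, so that the libraries labelled Sox4-MKO enclosed the controls from above and below. Mcm7 was the subunit that did not follow, at 9.86 and 5.28 against 6.76 and 7.52 FPKM. Mcm2, Mcm4 and Mcm5 ranged from 0.890 to 1.92 FPKM in the controls, reached 2.01, 2.52 and 2.37 FPKM in mouse 1, and lay between the controls in mouse 2. The log2 fold changes of the 6 subunits ran from -0.02 (Mcm7) to 0.37 (Mcm6), none larger than 1.5 times its standard error.

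The clamp gene Pcna, the most abundant of the S phase genes, was at 29.8 and 28.0 FPKM in the controls and 33.1 and 22.6 FPKM in the pair labelled Sox4-MKO, on opposite sides of the controls. Rrm2, the cell cycle-regulated subunit of ribonucleotide reductase, was at 1.15 and 0.886 against 2.50 and 1.06 FPKM. Its partner subunit Rrm1 was at 6.41 and 6.13 against 9.88 and 5.54 FPKM. Both thus stood out in mouse 1 alone. Tyms, the thymidylate synthase gene, differed 2.69-fold between the Sox4f/f mice, at 2.995 and 1.11 FPKM, and the libraries labelled Sox4-MKO at 2.63 and 1.53 FPKM lay inside that range.

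E2f1, the transcription factor that switches on S phase genes, was the exception. It was at 0.447 and 0.463 FPKM in the controls, about 16 and 15 fragments, and at 1.59 and 1.22 FPKM in the pair labelled Sox4-MKO, about 54 and 52 fragments. The groups were far apart, with a log2 fold change of 0.72 on log2(FPKM + 1) (SE 0.24, unadjusted p = 0.0353, adjusted p = 0.273 by limma). It passed the FPKM limit only through the libraries labelled Sox4-MKO, and it was still called at the unadjusted threshold with either of them left out (log2 fold change 0.61 and 0.83). Leaving out either control, quantile normalization or the replicate block ended the call at log2 fold changes of 0.71, 0.73, 0.48 and 0.72.

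E2F letters occurred in the windows of 5 of 10 S phase genes (50%), namely Mcm3, Mcm5, Mcm6, Mcm7 and Tyms, and in 5.93% of all genes, while the CHR letters occurred in Mcm2 alone. No match was present in the window of E2f1 itself. The windows of Mcm3 and Mcm6 are shown with the E2F letters, or their reverse complements, in capitals, as S phase genes highest in mouse 1. They lie on the minus strand at chr1:20820263-20820562 and chr1:128359656-128359955, and in Mcm6 a forward and a reverse match run into each other.
Mcm3: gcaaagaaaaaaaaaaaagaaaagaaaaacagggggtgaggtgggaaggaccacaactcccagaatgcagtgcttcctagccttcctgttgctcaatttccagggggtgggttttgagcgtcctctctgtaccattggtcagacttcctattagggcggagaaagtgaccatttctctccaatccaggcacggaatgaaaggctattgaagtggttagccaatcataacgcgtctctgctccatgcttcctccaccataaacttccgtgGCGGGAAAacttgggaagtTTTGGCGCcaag
Mcm6: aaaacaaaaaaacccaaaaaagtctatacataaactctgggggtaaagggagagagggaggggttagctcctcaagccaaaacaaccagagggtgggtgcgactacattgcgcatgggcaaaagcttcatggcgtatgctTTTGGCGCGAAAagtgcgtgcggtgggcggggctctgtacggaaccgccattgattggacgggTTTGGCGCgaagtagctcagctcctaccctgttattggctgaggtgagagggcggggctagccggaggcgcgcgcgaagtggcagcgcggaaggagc

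**Figure D3:**
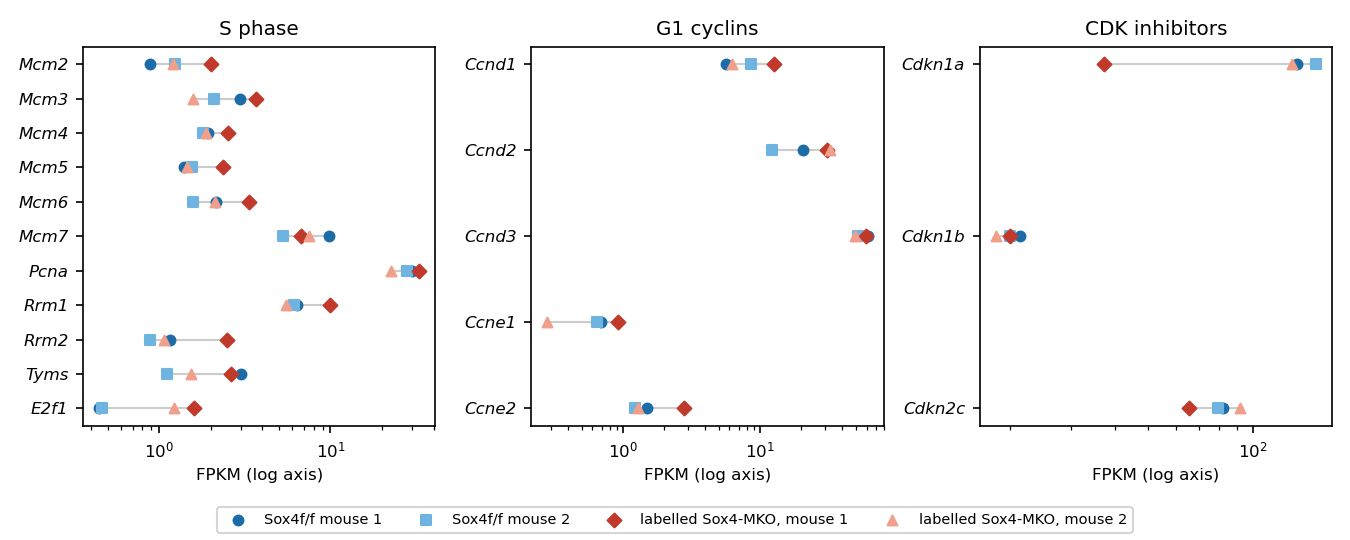
FPKM of the S phase genes, G1 cyclins and CDK inhibitors by library on log axes (blue, Sox4f/f; red, labelled Sox4-MKO); Cdkn2a is left out because it is listed at 0 in 3 libraries. Both red points lie right of both blue ones at E2f1 and Ccnd2, and Cdkn1a is far lower in Sox4-MKO mouse 1 than in the other libraries.

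In G1, the D-type cyclin Ccnd2 was higher in both libraries labelled Sox4-MKO. It was at 20.7 and 12.2 FPKM in the controls (mean 16.4 ± 6.06, SD, n = 2) and at 30.6 and 32.7 FPKM in the pair labelled Sox4-MKO (31.7 ± 1.48, SD, n = 2). The log2 fold change was 0.95 (SE 0.27, unadjusted p = 0.0187, adjusted p = 0.239 by limma), and its size kept between 0.59 and 1.31 when any 1 library was left out. Leaving out either library labelled Sox4-MKO lost the call. The other D cyclins did not separate, Ccnd1 at 5.68 and 8.61 against 12.7 and 6.25 FPKM and Ccnd3 at 61.2 and 52.3 against 59.8 and 49.2 FPKM. The E-type cyclins, which carry cells into S phase, were low in every library. Ccne2 was high in mouse 1 alone, at 1.49 and 1.22 against 2.81 and 1.29 FPKM, and Ccne1 was at 0.694 and 0.650 against 0.926 and 0.282 FPKM.

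The CDK inhibitors were dominated by Cdkn1a, which encodes p21, the inhibitor induced by p53 and by growth arrest. It was at 134 and 152 FPKM in the controls and at 37.2 and 130 FPKM in the pair labelled Sox4-MKO. The groups did not overlap. Cdkn1a was the only one of the 41 genes (2.44%) with both libraries labelled Sox4-MKO below both controls, against 21.3% of rows. However, mouse 2 lay just under the lower control while mouse 1 was at 0.260 times the Sox4f/f mean. The log2 fold change of -1.02 (SE 0.60, unadjusted p = 0.152, adjusted p = 0.450 by limma) became -1.91 without mouse 2 (unadjusted p = 0.000562, adjusted p = 0.0991) and -0.14 without mouse 1 (adjusted p = 0.648).

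Cdkn1b (p27), which holds CDK2 inactive in resting cells, was nearly level at 21.4 and 19.96 against 20.04 and 18.2 FPKM. Cdkn2c (p18), an inhibitor of CDK4 and CDK6, was at 82.0 and 79.5 against 65.3 and 91.9 FPKM, again on either side of the controls. Cdkn2a was listed at 0 FPKM in 3 libraries and at 0.133 FPKM in Sox4-MKO mouse 2. Its symbol covers 2 unrelated proteins made from different first exons, which the gene-level value does not separate.

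Across the 41 genes the test found little. Averaged FPKM exceeded 1 in at least 1 genotype for 25 genes and stayed at or below it for 16, of which 14 were mitotic, with Ccne1 and Cdkn2a. Of the 25, 7 passed only through the libraries labelled Sox4-MKO (E2f1, Top2a, Cdk1, Ccna2, Birc5, Aurkb and Prc1). At the unadjusted threshold of 0.05 used by the study, 2 of the 25 were higher, Ccnd2 and E2f1, where 7.95% of the 12877 rows tested were higher, and 0 were lower, where 8.28% of rows were lower. The share of the members called higher was close to that of all rows. No row had an adjusted p under 0.05 by limma (0% of 12877). With no FPKM limit and a pseudocount of 0.1, so that all 41 entered, Ccnd2, E2f1 and Nusap1 were higher and 0 were lower, where 6.26% of 22285 rows were higher and 5.59% lower. With 2 libraries a group the exact two-sided permutation test of 1 gene cannot go under p = 0.333.

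How much rested on 1 library was seen by leaving libraries out. Without Sox4-MKO mouse 2, 7 members were higher at the unadjusted threshold (Rrm1, Ccne2, Rrm2, Top2a, Ccna2, E2f1 and Aurkb), where 11.2% of rows were higher, and 1, Cdkn1a, was lower, where 6.33% of rows were lower. None of these had an adjusted p under 0.05 by limma. Without Sox4-MKO mouse 1, E2f1 alone was called. Aurkb moved from a log2 fold change of 1.02 without mouse 2 to 0.40 without mouse 1, Top2a from 0.85 to 0.20, and Rrm2 from 0.80 to 0.03. In these fits the lone library is assumed to vary as the controls do. The FPKM limit stayed as set on all 4 libraries. Top2a, Ccna2, E2f1 and Aurkb passed it only through the Sox4-MKO average, which includes mouse 1, so their calls without mouse 2 are not independent of the limit.

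**Figure D4:**
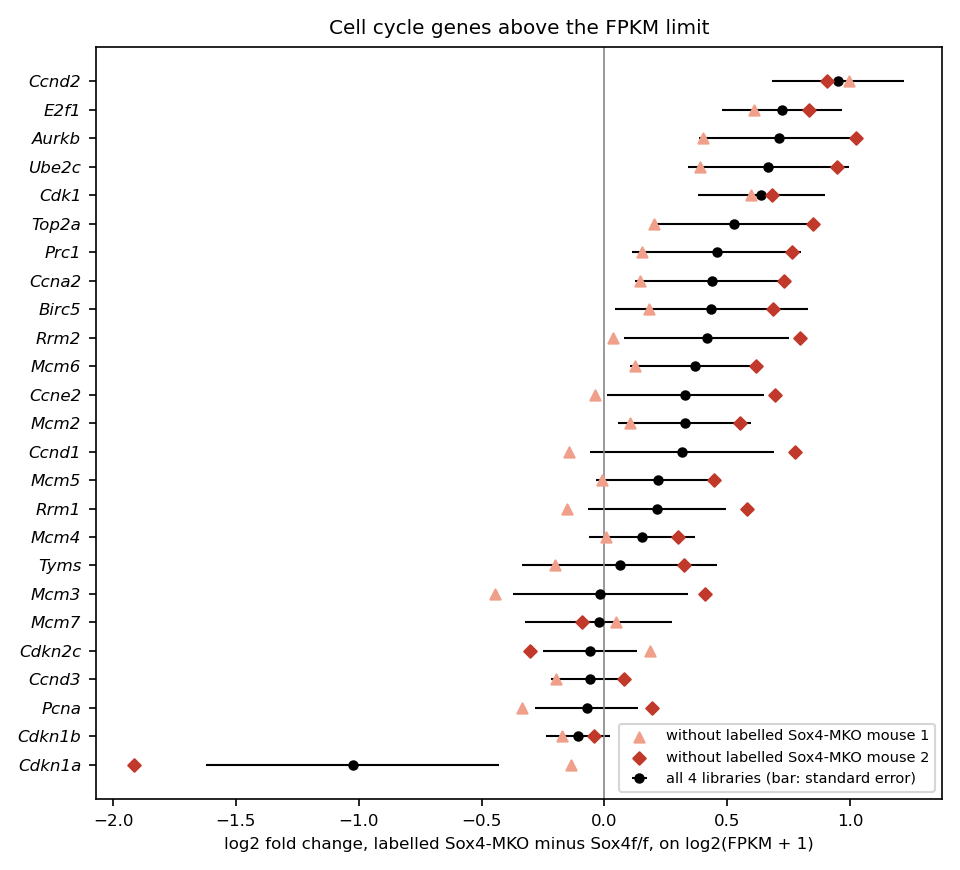
Log2 fold change (libraries labelled Sox4-MKO minus Sox4f/f, on log2(FPKM + 1)) of the 25 members above the FPKM limit, with the limma standard error as bars (black), and the same without Sox4-MKO mouse 1 (triangles) or mouse 2 (diamonds). The diamonds lie right of the triangles at most genes and far left of the triangle at Cdkn1a, while Ccnd2, E2f1 and Cdk1 differ little between them.

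Genes of the same machinery outside the 41 were read from further lists. Of 51 further mitotic genes found, 44 (86.3%) were highest in the library labelled Sox4-MKO mouse 1, against 32.4% of all rows. In mouse 2 only 17 (33.3%) lay above both Sox4f/f libraries, near the 31.5% of all rows. Both libraries labelled Sox4-MKO were above both controls at 17 genes (33.3%), against 19.7% of rows, and both below at 1 (1.96%), against 21.3% of rows. Of the 18 above the FPKM limit, 1 was higher and 1 lower at the unadjusted threshold, under the 7.95% and 8.28% of all tested rows. Cks1b, a small CDK-binding subunit, was at 5.42 and 4.52 FPKM in the controls and 9.65 and 7.38 FPKM in the pair labelled Sox4-MKO (log2 fold change 0.67, adjusted p = 0.245 by limma). Pttg1 (securin), the inhibitor of separase, went the other way at 77.2 and 76.8 against 57.01 and 60.4 FPKM (log2 fold change -0.39, adjusted p = 0.241 by limma). The CHR letters occurred in 69% of the 42 further mitotic windows.

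Of 48 further replication genes, 23 (47.9%) were highest in mouse 1, against 32.4% of all rows. Both libraries labelled Sox4-MKO were above the controls at 8 (16.7%) and below at 8 (16.7%), under the 19.7% and 21.3% of all rows. Of the 38 tested, 2 were lower and 0 higher, also under the shares of all tested rows (8.28% and 7.95%). The 2 were Slbp, the histone mRNA stem-loop binding protein gene, at 20.6 and 18.5 against 14.9 and 12.2 FPKM, and the origin recognition subunit gene Orc2, at 13.3 and 12.5 against 8.13 and 9.84 FPKM. E2F letters occurred in 41% of the 39 windows of these genes.

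Among 18 CDKs, partners and further inhibitors, 3 of 16 tested were higher and 1 lower at the unadjusted threshold, where 7.95% of all tested rows were higher and 8.28% lower, so the lower call was no more than the share of all rows. Ccng1, a p53-induced cyclin of growth arrest, was at 66.8 and 63.2 FPKM in the controls and 162 and 91.0 FPKM in the pair labelled Sox4-MKO. Cdkn2b (p15), an inhibitor of CDK4 and CDK6, was at 0.709 and 1.09 against 1.98 and 2.26 FPKM, and Mnat1, a subunit of the CDK-activating kinase, at 5.77 and 6.18 against 8.50 and 7.88 FPKM. Cdk6, the partner of the D cyclins, was lower at 8.20 and 6.08 against 4.49 and 4.52 FPKM. Their adjusted p-values by limma ran from 0.263 to 0.302.

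Of 16 tested genes of the Rb, E2F and DREAM machinery, 1 was lower and 0 higher, no more than the 8.28% and 7.95% of all tested rows. The 1 called was the DREAM subunit gene Lin37, at 10.1 and 9.08 against 5.795 and 6.66 FPKM (log2 fold change -0.55, adjusted p = 0.241 by limma). Of 21 tested p53 targets, 2 were higher and 0 lower, near the 7.95% of all tested rows called higher and under the 8.28% called lower. Gadd45a, a stress gene that inhibits CDK1, was at 2.31 and 2.92 against 7.05 and 5.53 FPKM (log2 fold change 1.01, adjusted p = 0.207 by limma), and the receptor gene Eda2r was at 0.388 and 0.563 against 1.66 and 1.32 FPKM. Without overlap between the groups, 7 of the 24 p53 targets (29.2%) were above the controls in both libraries labelled Sox4-MKO, against 19.7% of rows. Another 5 (20.8%) were below, near the 21.3% of rows. Of those below, Sesn2, Bax, Btg2 and Plk3, named after their values were seen, were highest in Sox4f/f mouse 2 and lowest in Sox4-MKO mouse 1. Cdkn1a had the same order, part of which is already fixed by lying below both controls. Trp53, also below, was lowest in mouse 2, at 14.1 and 14.5 against 12.9 and 12.6 FPKM. None of those below passed the test. Sesn2, a stress-induced inhibitor of mTORC1 signalling, was at 14.2 and 19.8 against 5.86 and 13.3 FPKM, and Btg2, an antiproliferative gene, at 15.9 and 16.5 against 10.2 and 14.9 FPKM. The median log2 fold change of the tested p53 targets was -0.07, where the median over all tested rows was -0.05.

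Markers of other cells in the tissue moved with the libraries, and their part in the cell cycle values was not tested. At the unadjusted threshold 7.95% of all tested rows were higher and 8.28% lower, and the counts of markers called are to be read against these shares. Skeletal muscle markers followed the order of the mitotic sum in the libraries labelled Sox4-MKO, with all 10 highest in mouse 1. They summed to 30.1 times the Sox4f/f mean there and to 5.33 times in mouse 2, and 9 of 10 were higher at the unadjusted threshold. In the controls the orders were opposite, with muscle sums of 230.1 and 841.5 FPKM beside mitotic sums of 10.6 and 8.82 FPKM. Macrophage markers summed to 225 and 328 FPKM against 469 and 451 FPKM (8 of 12 higher), and adipocyte progenitor markers to 281 and 310 against 537 and 489 FPKM (8 of 10 higher), at about the same level in both libraries labelled Sox4-MKO. Of the progenitor markers Dpp4, with the largest change of those called, was at 0.750 and 0.466 against 3.27 and 3.53 FPKM. Dlk1 went the other way without overlap, at 2.20 and 2.94 against 1.99 and 1.73 FPKM. Pdgfrb overlapped, at 8.99 and 7.66 against 7.91 and 8.96 FPKM. Of the 12 macrophage markers, 8 (66.7%) were highest in Sox4-MKO mouse 1, against 32.4% of rows, as were 5 of the 10 progenitor markers (50%); Lyz2, the most abundant of the macrophage list, was highest in mouse 2, at 175 and 197 FPKM in the pair labelled Sox4-MKO.

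The 7 red blood cell markers were each highest in mouse 1 (sums 842 and 1231 against 1555 and 1019 FPKM, 0 of 5 tested called), and so were 5 of 6 Schwann cell markers (123 and 98.3 against 188 and 115 FPKM, 0 of 5 tested called). Of all rows, 32.4% were highest in mouse 1. Neutrophil and bone marrow markers were scarce, at sums of 3.11 and 2.11 against 4.04 and 9.94 FPKM, and 4 of the 8 (Mpo, Ly6g, Ngp and Camp) were listed at 0 in all libraries. T and NK cell markers summed to 13.6 and 10.5 against 13.3 and 21.7 FPKM and B cell markers to 2.32 and 1.601 against 0.593 and 2.79 FPKM, so neither was highest in mouse 1. The endothelial marker sum was lower in both libraries labelled Sox4-MKO, at 355 and 429 against 248 and 314 FPKM, and lowest in mouse 1. By gene, 4 of the 10 (40%) were below both controls in both libraries labelled Sox4-MKO, against 21.3% of rows, and 0 above. The others overlapped between the groups, with Emcn highest in mouse 2 and Vwf in mouse 1. Of the 10, 1 was lower at the unadjusted threshold, against 8.28% of all tested rows. Smooth muscle and pericyte markers were at 171 and 204 against 148 and 209 FPKM (1 of 6 higher, against 7.95%). Brown adipocyte markers were at 14878 and 15218 against 10489 and 13839 FPKM (4 of 10 lower, against 8.28%). Of these 10, 6 (60%) were below both controls in both libraries labelled Sox4-MKO, against 21.3% of rows, and 0 above. Ucp1 was at 1935 and 1814 against 733 and 1105 FPKM. Fabp4, the most abundant of the list, was highest in mouse 2 at 7518 FPKM.

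**Figure D5:**
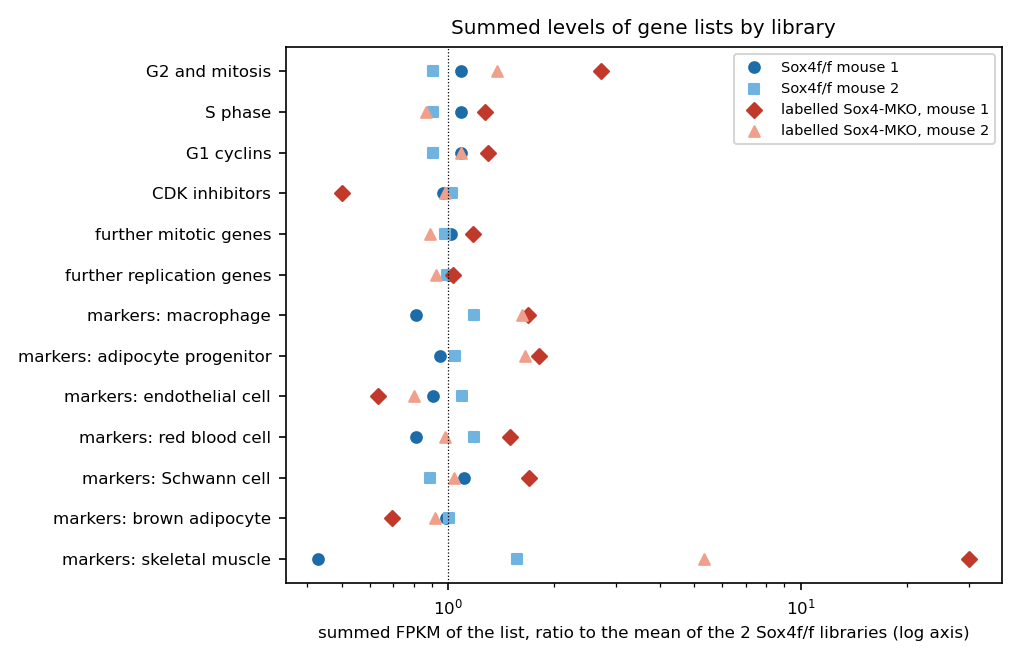
Summed FPKM of gene lists in each library as a ratio to the mean of the 2 Sox4f/f libraries (log axis; blue, Sox4f/f; red, labelled Sox4-MKO). The mitotic sum reaches 2.72 in Sox4-MKO mouse 1 and 1.38 in mouse 2, the inhibitor sum is at 0.501 in mouse 1, and skeletal muscle markers reach 30.1.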

How the data were processed

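RNA was sequenced from the brown fat of 4 mice, 2 per genotype, grouped by the labels. The authors deposited gene-level FPKM for each library. The submitters' processing notes name Cufflinks 2.1.1, Cuffdiff and the build mm10; the aligner is not given in the sources used here. FPKM are already scaled for depth and length, no counts were used, and depth was only estimated. The labels describe column extraction and a stranded kit, the study's methods TRIzol. Rows whose FPKM averaged over 1 in 1 or both genotypes (12877) were tested on log2(FPKM + 1) with limma 3.58.1 (R 4.3.3; eBayes with trend, two-sided, genotype only), and p-values were adjusted by Benjamini-Hochberg over all rows tested. Fold changes on this scale understate those of low genes. As the study did, a gene was called at an unadjusted p under 0.05. The fit was first tested on simulated data.

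All 41 members are named; of each further list, up to 5 called genes without overlap and with the largest change. The members and lists were chosen with earlier results of these data known. Motifs were searched in RefSeq promoter windows, in which 8 members had no entry. Fragment numbers are estimates from single-transcript genes of GENCODE, and their 95% Poisson intervals cover counting error only. Alternatives were other limits, pseudocounts and scalings, leaving out each library, a replicate block and a fit without moderation; the fit with no limit and a pseudocount of 0.1, and ranking each library labelled Sox4-MKO on its own, were chosen after seeing the data.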

Additional observations from a re-analysis of the deposited data

How the results depend on the processing

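At the unadjusted threshold the 2 members called higher became 1 with quantile normalization, 1 without moderation of the variance, 1 at an FPKM limit of 5 and 4 at a limit of 0.1, and 1 to 7 when each library was left out in turn, where leaving out Sox4f/f mouse 1 called Cdk1 in place of E2f1. Ccnd2 lost its call without moderation. The 0 members called lower became 0 to 1 on leaving out a library. Over all rows the 1066 lower and 1024 higher became 380 to 1015 and 433 to 1443 on leaving out a library, and the higher 553 without moderation. Scaling to a common sum without mitochondrially encoded genes and Ucp1 turned the log2 fold change of Ccnd3 to 0.012, of Mcm3 to 0.029, of Mcm7 to 0.042 and of Cdkn2c to 0.013, and quantile normalization turned Mcm4 to -0.010, Tyms to -0.090 and Cdkn2c to 0.0041. Leaving out 1 library also turned the sign, within a range of -0.14 to 0.78 for Ccnd1, -0.20 to 0.079 for Ccnd3, -0.037 to 0.69 for Ccne2, -0.44 to 0.41 for Mcm3, -0.011 to 0.45 for Mcm5, -0.42 to 0.37 for Mcm7, -0.34 to 0.19 for Pcna, -0.15 to 0.58 for Rrm1, -0.40 to 0.52 for Tyms and -0.30 to 0.19 for Cdkn2c. None of these 10 was called with all 4 libraries. The cause was not tested.

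With the replicate number as a block 1 member, Ccnd2, was called higher, and E2f1 kept its log2 fold change of 0.72 without the call. The deviations of same-numbered libraries from their group means correlated at -0.012. This gave no sign of pairing by number, but with 2 libraries a group it cannot exclude it.

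Members below 1 FPKM rest on few fragments, as with Ccnb2 at about 3 in the library labelled Sox4-MKO mouse 2, where differences from the controls were not detectable.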

Other observations

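Foxm1, the transcription factor that activates many mitotic genes, was looked at after the values were seen. It was at 0.808 and 0.230 FPKM in the controls and 1.86 and 0.315 FPKM in the pair labelled Sox4-MKO, highest in mouse 1 like most of the mitotic members, and the groups overlapped. Anln, which encodes the contractile ring protein anillin and was also chosen after its values were seen, was at 0.303 and 0.437 against 1.11 and 0.941 FPKM, with both libraries labelled Sox4-MKO apart from the controls as at Nusap1. Among the members, Birc5 and Plk1 differed 6.06-fold and 4.04-fold between the Sox4f/f mice, which was more than the gap between the group means at either gene.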
